A study of Mus musculus with 2 samples.

Results

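The peaks described here are all those that the odd and even probes against *Gm19619* gave on mouse chromosome 5, which carries the *Gm19619* gene itself. They were chosen by chromosome alone, with no use of their height or overlap. They numbered 883 of the 14261 peaks in the odd list (6.19%) and 217 of the 3637 peaks in the even list (5.97%), which is 1100 of 17898 peaks in all. The lists come from ChIRP-seq (chromatin isolation by RNA purification followed by sequencing) of primary hepatocytes of female wild-type C57BL/6 mice aged 8 weeks, in which cells of 4 animals made up 1 pool that was cross-linked for 10 min with 3% formaldehyde. The odd-numbered and the even-numbered probes, 7 in each set, gave 1 library each, and 6972538 odd and 7052802 even reads remained after removal of duplicates. With 1 library per probe set from the same pool of cells and no control library, no test between conditions exists, so all values are descriptions, and their 95% intervals cover counting error only.

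In ChIRP, biotinylated DNA probes complementary to an RNA retrieve that RNA together with the chromatin cross-linked to it. The probe sets are read against each other, because DNA that pairs directly with a probe should come down with the set of that probe, whereas chromatin held by the RNA should come down with both sets. Some long noncoding RNAs act in cis and cover the chromosome from which they are transcribed, as *Xist* does on the inactive X chromosome, and others reach distant loci in trans. The question for chromosome 5 was therefore whether peaks were denser, higher or more often shared by both lists near *Gm19619* than far from it.

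*Gm19619* lies at chr5:91257571-91283421 (GRCm38/mm10) on the minus strand and has 6 exons in the GENCODE vM21 annotation. Of the 14 probes, 11 had an exact site in the annotated transcript, and probe 2 spans the junction of exons 2 and 3 with 10 bases in each. Probes 5 (odd), 10 and 12 (both even) had no exact site with the letters available, 19 for each, which were read from page images. They were not located, so all counts of probe sites and runs leave them out and may be too low. Some of the sites beneath the highest peaks of the gene are shown, to mark where the probes' own targets lie. Exons 4 and 6 hold sites of both sets, so direct pairing with a probe and chromatin held by the RNA cannot be told apart there. They are written 5′ to 3′ on the plus strand, with the 20 bases of the site in capitals and 5 flanking bases in lower case. The RNA is read from the minus strand, so the capitals are also the letters that an antisense probe carries.
Probe 1 site (odd, exon 1, chr5:91283023-91283042): atatgAAGGAGAGTGAAGTGGCAGTccttg
Probe 3 site (odd, exon 4, chr5:91273978-91273997): ggagcTGTGCCATGTGAAAGCAGAGaaccc
Probe 4 site (even, exon 4, chr5:91273865-91273884): tgtatTTCAAGGTCATTGACACACCggagg
Probe 7 site (odd, exon 6, chr5:91258494-91258513): gacagGGGAACTGAGCTGTGAGATGtagga
Probe 8 site (even, exon 6, chr5:91258403-91258422): gattaCAGATTGTGGATAGTGATGAaataa
Probe 9 site (odd, exon 6, chr5:91258311-91258330): tgtaaCTATGGGTTCTGGACAGCTCctttg

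Within the gene, peaks lay over exons 1, 2, 4 and 6, and the highest of them were among the highest of the chromosome in both lists. Peak height is given as pileup, the number of reads, each extended to 200 bp, that cover the summit, and as fold enrichment over the background of the same library. The odd list held 5 peaks in the gene and the even list 3. Over exon 6, the last exon, the odd peak (chr5:91257582-91258835) reached a pileup of 114 and a fold enrichment of 75.8, and the even peak (chr5:91257542-91258809) reached 101 and 67.0. Of the located probe sites, this exon holds 4 odd and 3 even, more than any other exon. The odd and even summits were 11 bp apart. Exon 4 holds 1 located site of each set. There the odd peak (chr5:91273438-91274325) had a pileup of 80 and the even peak (chr5:91273547-91274089) 72, with fold enrichments of 53.4 and 47.9. Over exon 1 the odd list alone had a peak (chr5:91282582-91283542), with a pileup of 104 and a fold enrichment of 69.2. Its summit lay inside the site of probe 1, the only located probe site in that exon.

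The peaks over exon 2 differed from these in that neither held an uninterrupted site of a located probe. The odd peak there (chr5:91281322-91281690) had a pileup of 16 and the even peak (chr5:91281311-91281731) 20, with fold enrichments of 11.2 and 13.8. Exon 2 lies 1377 bp from exon 1, and the odd peaks over these exons were 891 bp apart. Exon 3, the longest exon at 1179 bp, and exon 5, at 77 bp, overlapped no peak of either list, and neither holds a whole site of a located probe. The remaining odd peak (chr5:91269100-91269299) lay in an intron, had a pileup of 9, and consisted wholly of sequence that the reference marks as repeat.

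All 7 exon peaks had their summit inside the exon. The odd peaks covered 60.4% of the 3201 annotated exon bases and 7.14% of the 22650 intron bases, and the even peaks 47.5% and 3.02%. These exon bases are more than the liver isoform reported in the paper holds, so the shares apply to the annotation only. On chromosome 5 the odd peaks over exons 6, 1 and 4 were the 2nd, 3rd and 5th highest of 883. The even peaks over exons 6 and 4 were the highest and 2nd highest of 217. Over all autosomes these odd peaks ranked 23rd, 26th and 46th of 13653, and these even peaks 19th and 31st of 3453. The odd and even fold enrichments of the same exon stood in ratios of 1.13 at exon 6, 1.11 at exon 4 and 0.813 at exon 2.

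**Figure D1:**
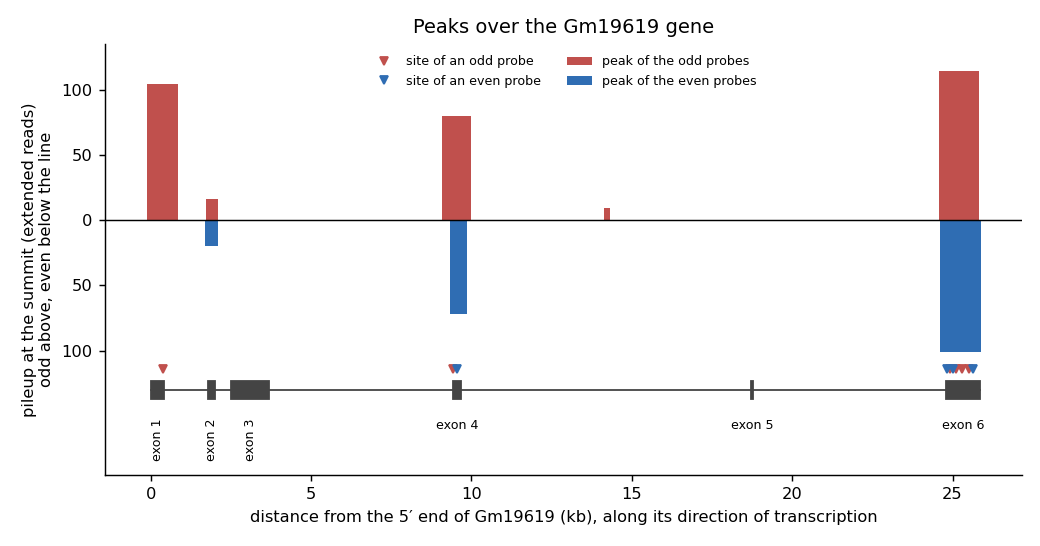
Pileup of the odd (above the line) and even (below the line) peaks over *Gm19619* against distance from the 5′ end of the gene in kb, with exons as boxes and exact probe sites as triangles. Bar width is the length of the peak, and the tall bars stand over exons 1, 4 and 6, where probe sites lie, with lower bars of 16 and 20 over exon 2.

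No peak adjoined the gene in the flanking DNA. In the 100 kb on either side of the gene, neither list had a peak, and a count of 0 over these 0.200 Mb allows a density of up to 18.4 peaks per Mb, which is above the density of the chromosome. From 100 kb to 1 Mb the odd list held 18 peaks (10.0 per Mb, 5.93 to 15.8), from 1 to 10 Mb 111 (6.18 per Mb, 5.09 to 7.45) and beyond 10 Mb 749 (5.85 per Mb, 5.44 to 6.29). The even list held 1 peak from 100 kb to 1 Mb (0.556 per Mb, 0.0141 to 3.10), 17 from 1 to 10 Mb (0.947 per Mb, 0.552 to 1.52) and 196 beyond 10 Mb (1.53 per Mb, 1.32 to 1.76). The odd density from 100 kb to 1 Mb was thus above that beyond 10 Mb, though the 2 intervals overlap. Over all bases within 1 Mb, the empty 100 kb included and the peaks in the gene left out, it was 8.89 per Mb. The even density from 100 kb to 1 Mb was below that beyond 10 Mb, and here too the 2 intervals overlap.

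The median height outside the gene was close to the same at all distances. Outside the gene, the median pileup of odd peaks was 12 from 100 kb to 1 Mb, 11 from 1 to 10 Mb and 12 beyond 10 Mb, and that of even peaks was 9, 9 and 10. Inside the gene the medians were 80 and 72. None of the 18 odd peaks and the 1 even peak between the gene and 1 Mb was shared by both lists. These counts allow shares of up to 17.6% and 79.3%, and over all chromosome 5 peaks outside the gene the shares were 2.62% odd and 11.2% even. So few peaks do not tell the neighbourhood from the rest. The 2 shared pairs between 1 and 10 Mb lay 2.52 and 4.16 Mb from the gene.

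**Figure D2:**
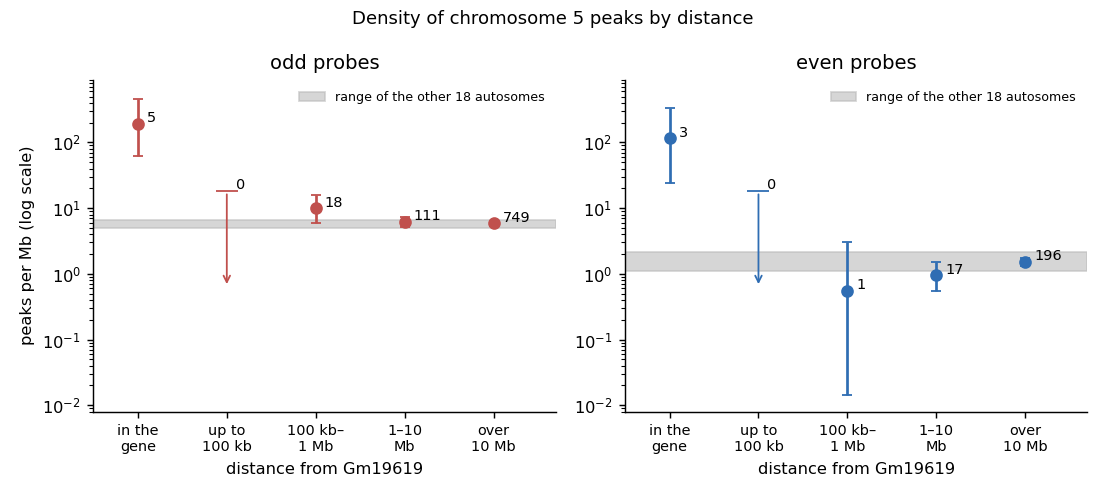
Peaks per Mb of known sequence (log scale) on chromosome 5 by distance from *Gm19619*, with exact Poisson 95% intervals, the number of peaks beside each point and an arrow down from the upper limit where no peak was found. The grey band is the range of the other 18 autosomes, and the points beyond 1 Mb lie in or near it, while those from 100 kb to 1 Mb are at 10.0 odd, above the band, and 0.556 even, below it.

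Counted with the gene, 23 odd and 4 even peaks lay within 1 Mb of it. Of the 1179 tiles of 2 Mb on the autosomes, 2.21% held at least 23 odd peaks and 25.8% held at least 4 even peaks. Without the peaks in the gene, 18 odd peaks and 1 even peak remained, and 12.1% of tiles held at least that many odd peaks and 89.6% at least that many even peaks. The 18 odd peaks were uneven, with 13 on the 3′ side of the gene (14.4 per Mb, 7.69 to 24.7) and 5 on the 5′ side (5.56 per Mb, 1.80 to 13). On the 3′ side, the next 9 steps of 1 Mb held 2 to 10 odd peaks each (median 5). On the 5′ side, they held 2 to 14 (median 9).

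The tile of chromosome 5 from 90 to 91 Mb, on the 3′ side, held 14 odd peaks and 1 even peak, and no other of the 147 tiles of 1 Mb had more odd peaks, though 2 had as many. It also held 16 starts of protein-coding genes, where the median tile had 6. Its GC content was 40.9%, where the median was 42.7%, and it held 7 sites of located odd probes, where the median was 8. Whether any of these bears on its number of peaks was not tested. The tile of the gene itself, from 91 to 92 Mb, held 9 odd and 4 even peaks, those in the gene among them. Across the 147 tiles, the number of odd peaks rose with GC content (Spearman's rho 0.557, Pearson's r 0.498) and with the number of gene starts (rho 0.479, r 0.391), and fell with the repeat-masked share (rho -0.448, r -0.458). With distance from *Gm19619* the coefficients were -0.0921 and -0.138. For the even peaks they were 0.362 and 0.351 with GC content, and 0.0436 and 0.0240 with distance. The tiles share 1 library per list and neighbouring tiles have a like base composition, so these coefficients are descriptions.

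The peak nearest to the gene in either list was an odd one 127 kb away on the 3′ side (chr5:91130353-91130769), with a pileup of 21, a fold enrichment of 14.5 and its summit 9058 bp from the start of *Areg*. On the 5′ side the nearest odd peak lay 284 kb away in an intron of *Parm1*, which encodes a mucin-like membrane protein, with a pileup of 9. The nearest even peaks lay 681 kb away on the 5′ side, 957 bp upstream of the ubiquitin ligase gene *Rchy1*, with a pileup of 9, and 1057 kb away on the 3′ side, with a pileup of 8. Of the 18 odd peaks within 1 Mb, the pileup was 8 to 44 with a median of 12, and 5 of them had a pileup of at least 16, the height of the odd peak over exon 2.

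**Figure D3:**
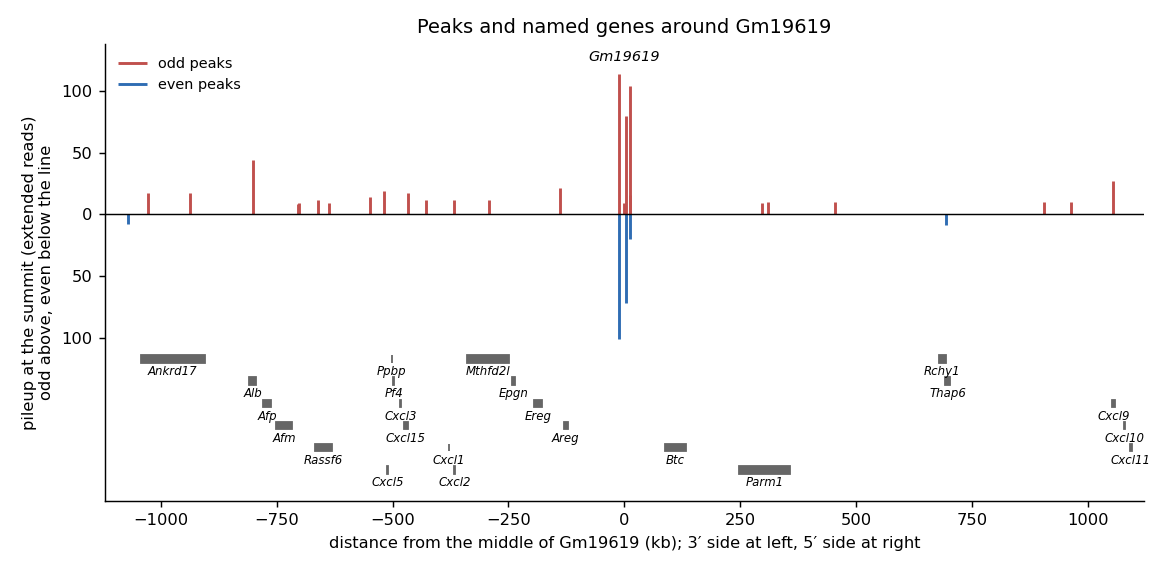
Pileup of odd (above) and even (below) peaks against distance from the middle of *Gm19619* in kb, with the named genes beneath. The gene stands out in both lists, and the nearest other peaks are an odd peak of 21 beside *Areg* and an even peak of 9 at *Rchy1* and *Thap6*.

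Many genes around *Gm19619* encode secreted proteins, and peaks at them were sought in the gene and the 5 kb on each side. Of the 1260 protein-coding genes of chromosome 5, 29.5% had an odd peak and 9.84% an even peak by this rule. Among the 28 protein-coding genes within 1 Mb of *Gm19619*, 10 had an odd peak (35.7%) and 1 an even peak (3.57%). The counts over the gene groups are small and are given beside these shares only.

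The EGF family ligands *Areg* (amphiregulin), *Ereg* (epiregulin), *Epgn* (epigen) and *Btc* (betacellulin) activate the EGF receptor and include the nearest named genes on both sides. None of the 4 had an odd or an even peak. They lie 73.8 kb (*Btc*), 109 kb (*Areg*), 164 kb (*Ereg*) and 222 kb (*Epgn*) from *Gm19619*, whose own peaks are left out of the following distances. The gap from the gene to the nearest odd peak outside *Gm19619* was 8830 bp for *Areg*, 36707 bp for *Ereg*, 48888 bp for *Epgn* and 164400 bp for *Btc*. To the nearest even peak outside *Gm19619* it was 561031 to 870379 bp over the 4 genes.

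Of the 7 chemokine genes of the near cluster, which attract neutrophils or are released by platelets, 2 had an odd peak and none an even peak. At *Cxcl2*, a neutrophil attractant, the odd peak (chr5:90901696-90902168) lay 1703 bp upstream of the gene, with a pileup of 12. At *Cxcl15*, the odd peak (chr5:90804459-90804743) lay 1392 bp downstream, with a pileup of 17. *Cxcl5* had an odd peak of 19 at a gap of 6266 bp, outside the 5 kb margin, and *Cxcl1*, *Cxcl3*, *Pf4* and *Ppbp* were 8581 to 19341 bp from their nearest odd peak.

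The further chemokines are *Cxcl9*, *Cxcl10* and *Cxcl11*, of a group that is induced by interferon and binds the receptor CXCR3, and *Cxcl13*, which attracts B cells. They had odd peaks at 2 of 4 and even peaks at none. The annotation lists *Cxcl11* as a polymorphic pseudogene and not as protein-coding. The odd peak at *Cxcl9* (chr5:92324516-92324813) lay in an intron, with a pileup of 27 and a fold enrichment of 18.5, and the one at *Cxcl13* lay 2666 bp downstream, with a pileup of 11. Of the albumin family, whose members carry hormones, vitamins and fatty acids in plasma and are made by the liver, *Alb* and *Gc* had odd peaks and none of the 4 had an even peak. The odd peak in an intron of *Alb* (chr5:90470247-90470888), the albumin gene, reached a pileup of 44 and a fold enrichment of 29.7, which made it the highest peak within 1 Mb of *Gm19619* outside the gene. In *Gc*, the vitamin D-binding protein gene, the odd peaks had pileups of 12 and 13, and *Afp* and *Afm* had none.

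Of the other 6 neighbours, *Mthfd2l*, *Rassf6*, *Ankrd17* and *Parm1* had odd peaks with pileups of 9 to 17. The same even peak of 9 was counted at *Rchy1* and at *Thap6*, which is annotated as a pseudogene. That was the only even peak at these neighbouring genes, and neither *Rchy1* nor *Thap6* had an odd peak, so no overlap was possible at them. Over the whole chromosome, 2.94% of odd and 12.4% of even peaks overlapped the other list.

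Across the whole chromosome, overlap between the lists was low and no higher than elsewhere. Peaks were called shared where they overlapped by at least 1 bp. Of the odd peaks of chromosome 5, 26 (2.94%, 2.02 to 4.28) overlapped an even peak, against 4.05% of those on the other 18 autosomes. In the even list 27 peaks (12.4%, 8.69 to 17.5) met an odd peak, against 15.8% on the other autosomes. From the highest share down, chromosome 5 ranked 12th of 19 for odd and 13th for even peaks. Outside the gene, 23 odd and 24 even peaks were shared, 2.62% and 11.2%.

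Many of the shared peaks outside the gene lay in repeats. Most pairs had fold enrichments within 2-fold of each other, but the odd and even values did not rise together. Repeat-masked sequence made up at least 50% of 11 of the 23 shared odd peaks (47.8%), against 16% of the odd peaks found in that list only, and of 11 of the 24 shared even peaks (45.8%), against 22.6%. Inside the gene, the repeat-masked share of the shared odd peaks was 7.97% at exon 6, 22.3% at exon 4 and 63.7% at exon 2. The nearest shared pair (chr5:93807859-93808067 in the odd list) was wholly repeat-masked, with pileups of 11 odd and 14 even, and so was the next, 5945 bp from the start of *Ugt2b36*, a gene for a glucuronidating enzyme, with pileups of 10 and 8. Across the 24 pairs outside the gene, the odd and even fold enrichments had a Spearman's rho of -0.104 and a Pearson's r of 0.0841 on the log2 scale, and across the 542 pairs on the other autosomes 0.532 and 0.765. The pairs come from the same pair of libraries, and these coefficients carry no test. The fold enrichments of 16 of the 24 pairs were within 2-fold of each other, 7 pairs were more than 2-fold higher in the odd list and 1 in the even list.

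Among the matched pairs, both lists had peaks in introns of *D5Ertd579e*, with pileups of 59 odd and 57 even at summits 4 bp apart, and 42 odd and 36 even at summits 18 bp apart. A pair whose nearest gene start is that of *Cdk8*, a kinase of the Mediator complex, had pileups of 27 in both lists at summits 1 bp apart. None of these 3 pairs held a run of 12 bases of a located probe. The opposite case was the highest odd peak of the chromosome (chr5:32733908-32734262), with a pileup of 128 in the odd and 9 in the even list, 51546 bp from the start of *Pisd* and also without such a run.

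**Figure D4:**
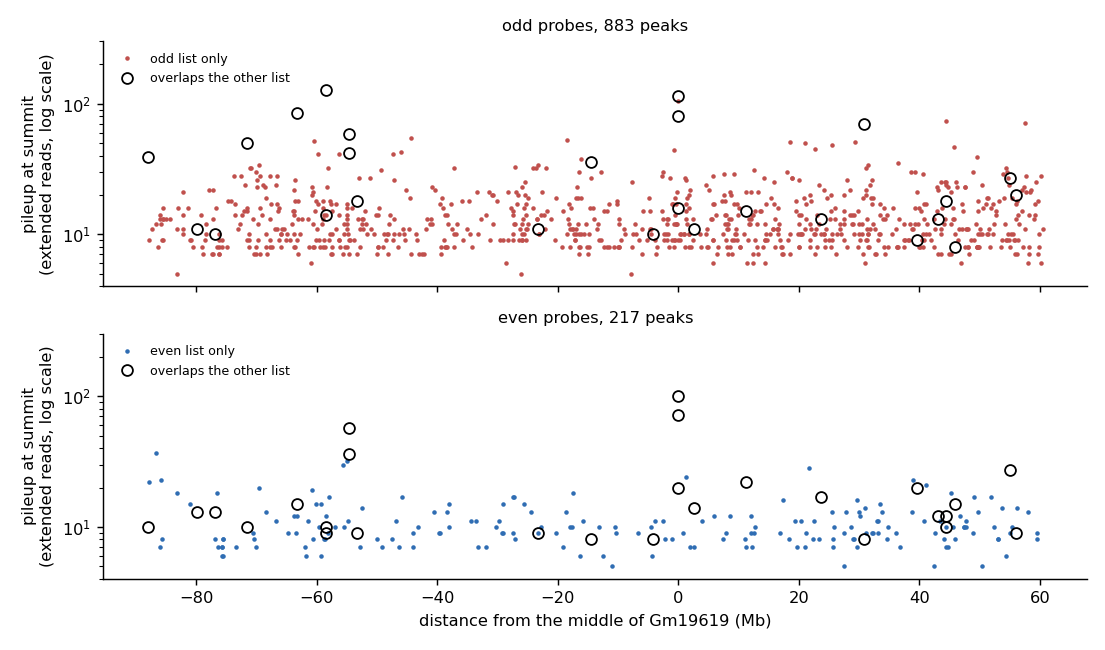
Pileup at the summit (log scale) of every chromosome 5 peak against distance from the middle of *Gm19619* in Mb, in the odd list (883 peaks) and the even list (217 peaks), with circles around peaks that overlap the other list. Circled peaks are spread along the chromosome, and the pair of circles above 70 in the even list lies at *Gm19619*.

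To see how many peaks hold letters that could pair with a probe directly, the 11 located probes were searched for runs of at least 12 uninterrupted matching bases on either strand. Runs of probes 5, 10 and 12 were not sought, so a peak given as without a run may hold one of these. Such a run of a probe of the same set was found in 258 odd peaks of chromosome 5 (29.2%, against 27.1% on the other autosomes) and in 60 even peaks (27.6%, against 23.2%). Runs of the other set's probes were found in 4 odd peaks (0.453%) and 7 even peaks (3.23%), of which 2 odd and 5 even peaks lay outside the gene. Outside the gene, the longest run was of probe 7 in 108 odd peaks and of probe 1 in 70, and of probe 2 in 48 of the 58 even peaks with a run. The following peaks are shown because they lie at or near named genes or are among the highest outside *Gm19619*. The letters are from the plus strand, with the run in capitals and 10 bases on each side in lower case.
Probe 1 run, odd peak upstream of *Cxcl2* (chr5:90901903-90901914): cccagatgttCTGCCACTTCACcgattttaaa
Probe 1 run, odd peak 37938 bp from the start of *Cxcl5* (chr5:90721440-90721452): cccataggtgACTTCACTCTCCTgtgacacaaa
Probe 7 run, odd peak in *Parm1* (chr5:91580747-91580758): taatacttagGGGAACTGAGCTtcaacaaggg
Probe 7 run, odd peak in *Cxcl9* (chr5:92324548-92324559): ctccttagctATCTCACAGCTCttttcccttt
Probe 7 run, odd peak 39670 bp from the start of *Insig1* (chr5:28031660-28031673): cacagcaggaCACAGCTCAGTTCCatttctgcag
Probe 7 run, odd peak in *Ccdc63* (chr5:122131600-122131614): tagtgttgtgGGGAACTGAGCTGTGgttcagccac
Probe 8 run, even peak in *Sorcs2* (chr5:36263612-36263626): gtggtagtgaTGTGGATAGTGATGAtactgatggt
Probe 2 run, even peak in *Acox3* (chr5:35596140-35596153): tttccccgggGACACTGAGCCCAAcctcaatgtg

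The capitals in *Parm1*, *Ccdc63* and *Sorcs2* read as part of the site in *Gm19619* printed for the same probe, and those listed with *Cxcl2*, *Cxcl5*, *Cxcl9* and *Insig1* as its reverse complement. The runs differed in distance from the summit of their peak. It was 12 bp for *Ccdc63*, 18 bp for *Cxcl5*, 20 bp for *Insig1* and 54 bp for *Sorcs2*. For *Cxcl9* it was 88 bp, for *Parm1* 104 bp, for *Cxcl2* 109 bp and for *Acox3* 140 bp. The peak listed with *Cxcl5* had a pileup of 14 and is not the nearer one of 19, which held no run. The peak whose nearest gene start is that of *Insig1*, which encodes a sterol sensor of the endoplasmic reticulum, had a pileup of 85 in the odd and 15 in the even list. The peak in *Ccdc63* had 70 and 8. In the 4 shared pairs whose odd peak held a run of an odd probe, the odd fold enrichment was 3.65 to 7.92 times the even one. With an even probe's run in the even peak, as in 1 pair, it was 0.478 times, and in the 19 pairs with no run the median was 1.17 (0.565 to 13).

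Of the 18 odd peaks between the gene and 1 Mb, 4 held a run of an odd probe, and the peaks beside *Areg*, in *Alb* and at *Cxcl15* held none. Counted over sites in place of peaks, 4 of the 20 sites of at least 12 bases within 1 Mb of the gene lay in an odd peak (20%, 8.07 to 41.6), as did 20.4% of 1127 sites beyond 10 Mb (18.2 to 22.9) and 18.9% of 18723 on the other autosomes (18.4 to 19.5). Within 10 Mb it was 25% of 120 sites (18.1 to 33.4). The share rose with the length of the run, so sites are also given by length. Of sites with a run of 12 bases, 16.7% of 18 within 1 Mb lay in an odd peak (5.84 to 39.2), 20.6% of 97 within 10 Mb (13.8 to 29.7), 11.7% of 856 beyond 10 Mb (9.70 to 14) and 10.5% of 14311 on the other autosomes (10.1 to 11.1). With 13 bases the shares were 38.9% of 18 within 10 Mb and 38.1% of 210 beyond it, and with 14 or more 60% of 5 and 82% of 61. Sites of 12 bases within 10 Mb were thus in an odd peak more often than those beyond 10 Mb, a difference that was not tested, and longer ones were too few near the gene to compare. Even sites lay in an even peak less often. It was 0 of 7 within 1 Mb, which allows up to 35.4%, and 3.16% of 95 within 10 Mb (1.08 to 8.88). Beyond 10 Mb it was 6.43% of 871 (4.98 to 8.26). Of even sites with a run of 12 bases, 1.37% of 73 within 10 Mb lay in an even peak (0.242 to 7.36). Beyond 10 Mb it was 2.85% of 667 (1.83 to 4.41). The even shares thus went the other way from the odd ones, with overlapping intervals, and this was not tested either.

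Set against the other 18 autosomes, chromosome 5 lay within their range in number of peaks and in overlap, and its median odd pileup was the highest by a small margin. It had 5.97 odd peaks per Mb (5.58 to 6.38), where the others ranged from 5.01 on chromosome 12 to 6.60 on chromosome 19, and 1.47 even peaks per Mb (1.28 to 1.68), where they ranged from 1.09 on chromosome 14 to 2.18 on chromosome 1. It ranked 6th of 19 in both. A fold enrichment of at least 10 was reached by 294 odd peaks (33.3%, against 30.8% elsewhere) and 41 even peaks (18.9%, against 18.4%). The median odd pileup was 12, the highest of the 19 autosomes, where the others ranged from 11 to 11.5. The median even pileup was 10, where the others ranged from 9 to 11.

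**Figure D5:**
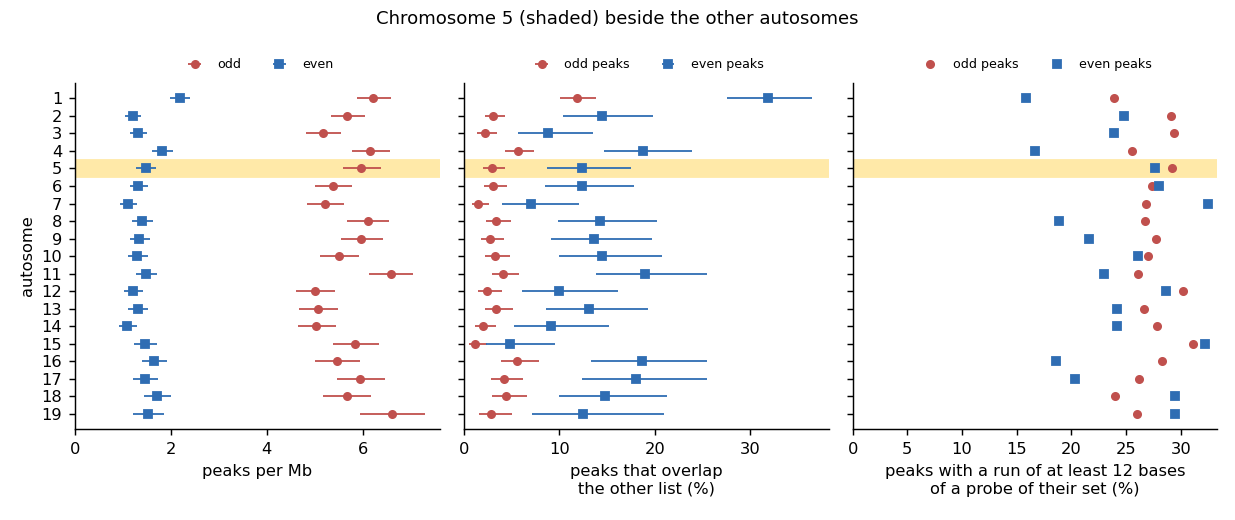
Peaks per Mb with exact Poisson 95% intervals, share of peaks that overlap the other list with Wilson 95% intervals, and share of peaks in which 12 or more bases of a probe from their set occur in a row, for each autosome. Chromosome 5 (shaded) lies within the range of the others in all 3 panels, and chromosome 1 has the highest overlap, 11.8% of odd and 31.8% of even peaks.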

How the data were processed

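Chromosome 5 peaks were taken from the deposited odd and even lists. Per the submitters' processing notes, Novoalign 4.02.02 and SAMtools 1.9 were used. Per the file headers, MACS2 2.1.1.20160309 was run by the authors on each library's 101-bp reads, extended to 200 bp, with 1 read kept per position, neither model nor local background, a q limit of 0.05 and no control. After duplicate removal, 11.4% of 61155168 reads were kept for the odd set and 10.7% of 65783155 for the even set, so weak peaks may be missed. In the deposited lists, pileup is the summit signal computed by the authors, unscaled between libraries, and the fold enrichment is the authors' ratio to a genome-wide background. The deposited −log10 p and q columns had damaged headings and were told apart by the column order of MACS2, and 1 even start, on another chromosome, was restored from its end and length.

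Overlaps, distances from the edges of *Gm19619*, counts per Mb of known sequence with exact Poisson intervals and shares with Wilson intervals were computed in Python 3.11.15 (numpy 2.4.6, pandas 2.3.3, scipy 1.17.1, matplotlib 3.10.9), with the GRCm38.p6 genome and GENCODE vM21 annotation, the build of the files. Probe sites were located with 11 of the 14 probes, and all printed letters were read from that genome. The overlap count and the run search were tested on simulated data. Members, gene lists and the named regions (all peaks within 1 Mb, shared pairs, the 5 highest fold enrichments of each list) were chosen with earlier results of these data known. Alternatives were stricter thresholds, the pileup and length filter, other overlap and distance rules, and leaving out peaks in the gene or with probe runs. Expression was not measured in these libraries, so the hepatocyte label was not checked. The values of 1 liver gene on the list are not reported here.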

Additional observations from a re-analysis of the deposited data

How the results depend on the processing

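The count of odd peaks within 1 Mb of *Gm19619*, 23 as deposited, fell to 9 at a fold enrichment of at least 10, where 294 chromosome 5 peaks remained. The count of even peaks, 4 as deposited, was 1 without the peaks in the gene and 2 without peaks that held a probe run. The even overlap share rose from 12.4% to 19.5% at a fold enrichment of at least 10, against 23.3% on the other autosomes. At that threshold the median pileup within 1 Mb rose from 12 to 21 for odd and from 46 to 72 for even peaks. The threshold keeps only the higher peaks, so a rise follows from it. The even value of 72 comes from the 3 peaks in the gene alone. Without the peaks in the gene the even median was 9, from 1 peak. Without peaks that held a probe run, an alternative chosen after seeing the data, it was 14.5, from 2 peaks. The other alternatives run for each of these values moved it by less than their counting interval or 1.5 times. No paired analysis was possible because each probe set is 1 library. Depth after duplicate removal limits weak peaks, and 1 library per set leaves the spread between pull-downs unknown.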

Other observations

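Away from *Gm19619*, 36 chromosome 5 genes of liver metabolism were looked at by the same rule of a peak in the gene or the 5 kb on each side. Odd peaks were found at 10 of them (27.8%, against 29.5% of the protein-coding genes of the chromosome) and even peaks at 5 (13.9%, against 9.84%). Both lists had peaks at *Por*, which encodes the reductase that passes electrons to microsomal cytochrome P450 enzymes. Its 3 odd peaks had pileups of 25, 24 and 18 and its 3 even peaks 10, 12 and 10, and the odd peak of 18 overlapped 2 of the even ones. *Scarb1*, the HDL receptor gene, had odd pileups of 8 and 16. At *Cyp3a25*, a cytochrome P450 gene, they were 10 and 27, and the latter peak held a run of 12 bases of probe 7. *Cd36*, a fatty acid transporter gene, and *Ppargc1a*, which encodes a coactivator of gluconeogenic genes, had even peaks of 7 and 9 and no odd peak.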
